A study of Homo sapiens with 26 samples.

Results

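The IGF2BP family (IGF2BP1, IGF2BP2 and IGF2BP3) was followed at the level of translation in Huh7 cells, a line from a hepatocellular carcinoma. The 3 genes were chosen by gene symbol, with their footprint results known, and make up 3 of the 12325 transcripts in the data. Footprint and translational efficiency values are therefore given as a description, with no p-value. Whether a member passed the threshold of a fit is stated there only beside the share of all transcripts that did, and p-values are given for mRNA-seq, a separate readout.

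All groups were Huh7 cells, given either PF-06446846, a small molecule that stalls ribosomes on a few nascent chains, or vehicle (DMSO). Study 1 measured ribosome footprints by ribo-seq in 18 libraries, at 1.5 μM, 0.3 μM or no compound (vehicle), 10 or 60 min after addition, with 3 replicates in each of these groups. Study 2 measured footprints in 4 libraries and mRNA by mRNA-seq in 4, with 2 replicates each of 1.5 μM and vehicle after 60 min. Cycloheximide, which freezes elongating ribosomes, was used at harvest in every group. The model is a single transformed line, so the values say nothing of other cells.

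IGF2BPs are mRNA-binding proteins that carry RNA recognition motifs and KH domains and hold their client mRNAs in cytoplasmic particles, where they affect mRNA stability, localization and translation. They are called oncofetal because they are abundant in the embryo, largely silent in most adult tissues and re-expressed in many tumors, hepatocellular carcinoma among them. IGF2BP2 differs in that it persists in several adult tissues. They also act as readers of N6-methyladenosine (m6A) in mRNA.

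The first 50 codons are shown because the reads of IGF2BP2 after them were fewer at 1.5 μM. All 3 stretches lie in the first coding exon of their gene in GRCh38, with annotation from GENCODE 44: IGF2BP1 at chr17:48997746-48997895 on the plus strand, IGF2BP2 at chr3:185824811-185824960 on the minus strand and IGF2BP3 at chr7:23469961-23470110 on the minus strand. Capitals mark the start codon, codons 11 to 30 of IGF2BP2, codons 45 and 46 of IGF2BP1 and codon 42 of IGF2BP3, positions whose reads are described below.
IGF2BP1: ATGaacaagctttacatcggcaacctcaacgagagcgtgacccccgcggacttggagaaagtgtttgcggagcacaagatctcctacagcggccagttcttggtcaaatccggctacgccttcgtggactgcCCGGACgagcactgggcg
IGF2BP2: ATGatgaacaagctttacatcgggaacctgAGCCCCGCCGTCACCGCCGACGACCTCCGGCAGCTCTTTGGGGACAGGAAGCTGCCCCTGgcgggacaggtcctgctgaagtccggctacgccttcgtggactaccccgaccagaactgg
IGF2BP3: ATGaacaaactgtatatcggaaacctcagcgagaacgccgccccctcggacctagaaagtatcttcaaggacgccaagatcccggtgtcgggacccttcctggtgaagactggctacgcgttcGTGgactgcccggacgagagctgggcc

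The coding sequences of the 3 genes differ enough that no footprint-length stretch is common to them. IGF2BP1 (ENST00000290341) has 578 codons with the stop codon in 15 coding exons at chr17:48997746-49049444, IGF2BP2 (ENST00000382199) has 600 in 16 at chr3:185645531-185824960 and IGF2BP3 (ENST00000258729) has 580 in 15 at chr7:23312362-23470110. Identical bases at aligned codons came to 68.9% between IGF2BP1 and IGF2BP2, 69.0% between IGF2BP1 and IGF2BP3 and 68.7% between IGF2BP2 and IGF2BP3. No run of 28 bases, about the length of a footprint, was shared by any pair of them, and none was found in the other transcripts searched. In a codon alignment, codon 45 of IGF2BP1 lined up with codon 46 of IGF2BP2 and codon 45 of IGF2BP3.

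Levels within a gene are given as RPM, the reads in the coding sequence scaled to a library of 1000000 coding reads, and levels between genes per kilobase as well (RPKM). The libraries held 6414227 to 22224137 coding reads in study 1, 8888459 to 13736874 in the ribo-seq of study 2 and 15227654 to 22036358 in its mRNA-seq. The reads behind one library's value ran from 2054 to 7393 for IGF2BP1 and from 287 to 1648 for IGF2BP2. Of the 9 hepatocyte markers, 8 were in the table, with a summed level of 8588 to 31524 RPM over the libraries; ALB was not analysed here. Of 6 markers of blood, fibroblast and endothelial cells, CD68 and PECAM1 were in the table and summed to 51.6 to 81.8 RPM.

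Per length, IGF2BP1 had the most footprints of the 3 members. With vehicle its footprints came to 203 ± 11.5 RPKM (SD, n = 3) after 10 min and 183 ± 2.46 (SD, n = 3) after 60 min. IGF2BP3 followed with 58.4 ± 11.8 and 44.4 ± 3.19 RPKM, and IGF2BP2 was lowest with 49.6 ± 7.93 and 36.1 ± 5.77 RPKM. IGF2BP1 stood clear of both others, whereas the ranges of IGF2BP3 and IGF2BP2 overlapped between libraries at both times in study 1. Within a library IGF2BP3 was above IGF2BP2 in 6 of 6 vehicle libraries, from 45.4 against 41.3 RPKM to 68.6 against 57.1 RPKM after 10 min, and from 40.9 against 32.2 RPKM to 47.1 against 42.7 RPKM after 60 min. In study 2 the same order held, with 188 ± 1.36, 60.3 ± 0.748 and 40.4 ± 1.57 RPKM (SD, n = 2).

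IGF2BP2 had far fewer footprints at 1.5 μM than with vehicle after 10 min. Its level was 45.7, 44.2 and 37.8 RPM in the 3 libraries of 1.5 μM and 90.9, 103 and 74.3 RPM in the 3 of vehicle. The groups did not overlap: the highest library of 1.5 μM was below the lowest of vehicle, and the mean was 47.6% of vehicle. Taken by replicate number the percentage ran from 43.0 to 50.8, although the 10 min numbers were not taken as pairs. The log2 fold change was −1.02 (SE 0.129), the largest of the family in any comparison.

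After 60 min IGF2BP2 was again lower at 1.5 μM. The 3 libraries stood at 52.8, 41.0 and 38.1 RPM against 76.9, 59.9 and 58.0 RPM with vehicle. These groups did not overlap either, and the mean was 67.7% of vehicle, with 65.7% to 68.7% by replicate number. The log2 fold change was −0.55 (SE 0.151). The mean of the vehicle libraries was lower after 60 min than after 10 min, but the libraries of the 2 times overlapped, and the difference between the times was not tested.

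Study 2 repeated the 60 min treatment. IGF2BP2 footprints were 50.8 and 54.0 RPM at 1.5 μM against 74.8 and 70.8 RPM with vehicle, again without overlap. The share of all transcripts whose groups were apart was not computed for any comparison. Nothing is therefore read from a lack of overlap alone, here or elsewhere. The mean was 72.0% of vehicle and the log2 fold change −0.48 (SE 0.0845).

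At 0.3 μM the levels of IGF2BP2 were closer to vehicle. They were 85.0, 64.6 and 49.3 RPM after 10 min and 77.9, 60.9 and 53.0 RPM after 60 min. Both groups overlapped with their vehicle libraries, at a mean of 74.2% after 10 min and 98.5% after 60 min. By replicate number IGF2BP2 was lower in 3 of 3 libraries after 10 min, at 62.8% to 93.5% of vehicle, and in 1 of 3 after 60 min, at 91.4% to 101.6%. The numbers were taken as pairs after 60 min but not after 10 min. The log2 fold changes were −0.40 (SE 0.175) and −0.03 (SE 0.149). The vehicle libraries at each time are the same ones used for 1.5 μM.

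The total of IGF2BP1 was close to vehicle throughout. After 10 min the libraries held 334, 331 and 319 RPM at 1.5 μM and 349, 373 and 333 RPM with vehicle, which overlap. By replicate number 3 of 3 were lower at 1.5 μM, at 88.9% to 95.7% of vehicle, but the 10 min numbers were not taken as pairs. After 60 min they held 333, 308 and 322 RPM against 320, 318 and 312 RPM. In study 2 they held 324 and 340 RPM against 325 and 329 RPM. The log2 fold changes were −0.05 (SE 0.0921), 0.02 (SE 0.108) and 0.02 (SE 0.0632), and at 0.3 μM −0.11 (SE 0.110) after 10 min and 0.02 (SE 0.0993) after 60 min.

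IGF2BP3 overlapped with vehicle at 1.5 μM. After 10 min the libraries held 84.3, 96.1 and 71.0 RPM at 1.5 μM and 106, 119 and 79.0 RPM with vehicle. After 60 min they held 79.1, 62.1 and 64.0 RPM against 82.0, 78.8 and 71.2 RPM. In study 2 they held 96.2 and 113 RPM against 104 and 106 RPM. The groups overlapped in all 3 comparisons. By replicate number each of the 3 libraries of 1.5 μM in study 1 was lower at both times. They stood at 79.3% to 89.9% of vehicle after 10 min and 78.8% to 96.4% after 60 min. Only the 60 min numbers were taken as pairs. In study 2 1 of 2 was lower. The log2 fold changes were −0.22 (SE 0.147), −0.18 (SE 0.130) and −0.01 (SE 0.0888). At 0.3 μM they were −0.11 (SE 0.158) after 10 min and −0.03 (SE 0.121) after 60 min.

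**Figure D1:**
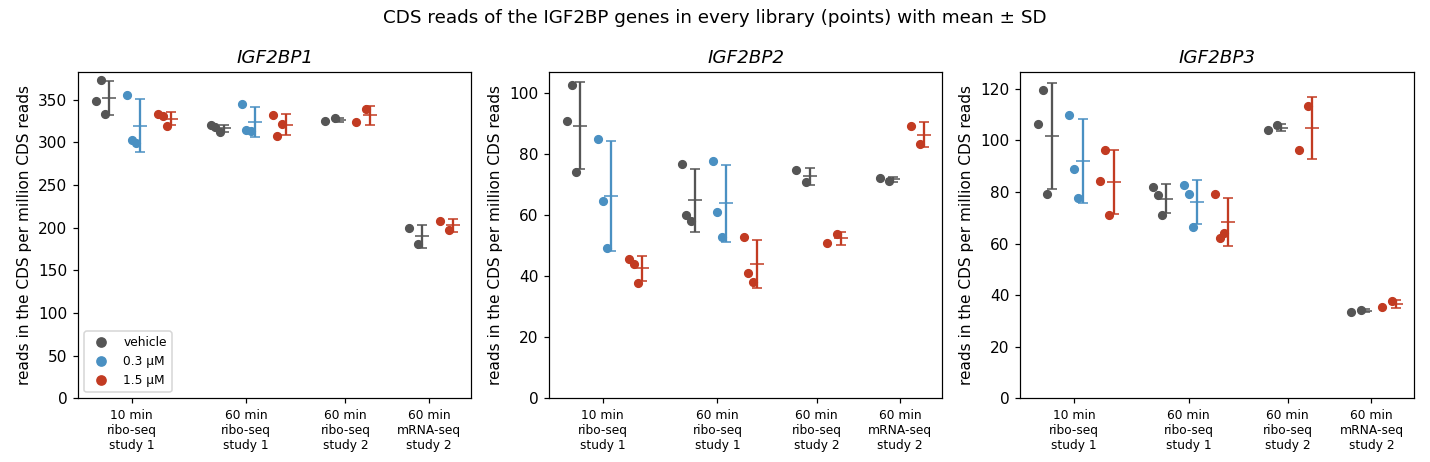
RPM of the coding sequence for each gene (panels), group by group; points are libraries and bars are the mean with its SD. The 3 IGF2BP2 libraries of 1.5 μM after 10 min lie between 37.8 and 45.7 RPM, below all 3 of vehicle at 74.3 RPM or more.

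How many members passed an FDR of 0.1 with edgeR is given beside the share of all transcripts that did, and nothing is read from it, since the footprints were in view when the genes were chosen. At 1.5 μM after 10 min 1 of the 3, IGF2BP2, passed, against 0.851% of 11045 transcripts, and 1953 transcripts were at an unadjusted p under 0.05. At 1.5 μM after 60 min 0 of 3 passed, against 0.0726% of 11021. The replicate numbers paired these libraries, and with the replicate block IGF2BP2 passed (log2 fold change −0.56, SE 0.0966), against 0.463% of transcripts. In study 2 0 of 3 passed, against 0.115% of 11263. At 0.3 μM edgeR called 0% of transcripts after 10 min and 0% after 60 min, with 104 and 97 transcripts at an unadjusted p under 0.05, and DESeq2 called 0 in each.

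**Figure D2:**
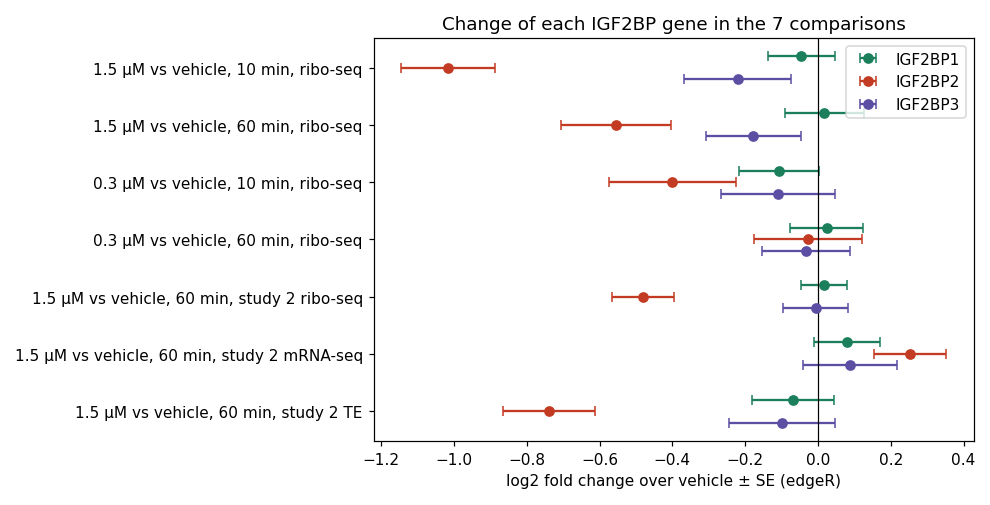
Log2 fold change over vehicle with its SE for the 3 genes (colors) in the 7 comparisons (rows). IGF2BP2 runs from −1.02 at 1.5 μM after 10 min to 0.25 in mRNA-seq, while IGF2BP1 lies between −0.11 and 0.08.

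The lower footprints of IGF2BP2 lay mostly after codon 50, a boundary chosen after the values were seen, as were the 50-codon segments below. Codons 41 to 50 were already below vehicle without overlap after 10 min, at 0.539 against 0.899 RPM, and in study 2, at 1.69 against 2.74 RPM. After 60 min in study 1 they overlapped, at 0.736 against 0.581 RPM. In codons 1 to 50 the level at 1.5 μM was 3.61 ± 1.72 RPM against 2.65 ± 0.696 RPM with vehicle after 10 min (SD, n = 3). It was 2.67 ± 0.239 against 2.03 ± 0.333 RPM after 60 min (SD, n = 3) and 5.14 ± 0.158 against 4.64 ± 0.594 RPM in study 2 (SD, n = 2). Of these, the 60 min groups of study 1 did not overlap, with 1.5 μM the higher by a narrow margin. The lowest library of 1.5 μM held 2.40 RPM (27 reads) and the highest of vehicle 2.38 RPM (24 reads). At 0.3 μM these codons held 7.81, 1.77 and 3.47 RPM after 10 min, which overlapped with vehicle, and 3.03, 2.50 and 2.40 RPM after 60 min, above all 3 vehicle libraries at 1.71, 2.00 and 2.38 RPM and at 130.3% of their mean. Over the codons after 50 the mean was 44.9% of vehicle after 10 min, 65.7% after 60 min and 69.3% in study 2, and none of these groups overlapped. The same codons of IGF2BP1 were also below vehicle without overlap after 10 min, at 90.9%, and overlapped in both 60 min comparisons.

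The share of IGF2BP2 reads in codons 1 to 50 was higher at 1.5 μM. After 10 min it was 12.1%, 6.96% and 5.85% at 1.5 μM, against 2.36%, 3.35% and 3.17% with vehicle and 9.19%, 2.74% and 7.05% at 0.3 μM. After 60 min it was 5.20%, 6.97% and 6.29% against 2.23%, 3.33% and 4.10%, and at 0.3 μM 3.89%, 4.11% and 4.53%. In study 2 it was 10.3% and 9.32% against 5.65% and 7.15%, while in mRNA-seq it was 9.65% and 6.77% against 8.56% and 11.6%. The 1.5 μM and vehicle libraries were apart in all 3 footprint comparisons and overlapped in mRNA-seq.

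This higher share after 10 min was seen in all 3 genes. It was not particular to them, since the median transcript also shifted toward codons 1 to 50 after 10 min, as given below. It was 8.86%, 6.62% and 6.20% at 1.5 μM against 4.40%, 5.11% and 5.09% with vehicle for IGF2BP1, and 8.64%, 8.53% and 9.48% against 5.57%, 5.70% and 4.92% for IGF2BP3, both without overlap. After 60 min the groups of IGF2BP1 overlapped, and those of IGF2BP3 were apart in the other direction, at 4.95%, 7.14% and 7.64% against 8.94%, 9.08% and 9.19%. In study 2 the groups of both genes overlapped.

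Set against all transcripts with at least 50 pooled reads on each side of that boundary in both groups, the log2 ratio of codons 1 to 50 minus that of the rest was 1.57 for IGF2BP2 after 10 min, where the median transcript was at 0.34. It was 0.84 after 60 min and 0.71 in study 2. Of the transcripts measured, 0.904% of 5308, 1.20% of 5499 and 1.56% of 5257 were at or above it. For IGF2BP1 the values were 0.60, 0.00 and −0.01, with 27.7%, 49.6% and 59.6% of transcripts at or above. For IGF2BP3 they were 0.74, −0.66 and 0.24, with 18.1%, 97.8% and 21.5% at or above. The IGF2BP2 values rest on few reads: its codons 1 to 50 held 89, 108 and 132 pooled reads at 1.5 μM and 100, 66 and 103 with vehicle.

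Downstream, all 11 segments of 50 codons of IGF2BP2 were below vehicle in all 3 comparisons at 1.5 μM. The ratio to vehicle ranged from 0.241 to 0.601 after 10 min, from 0.506 to 0.765 after 60 min and from 0.521 to 0.998 in study 2. The groups did not overlap in 10, 5 and 10 of the 11 segments. In IGF2BP1 3, 0 and 1 segments were below vehicle without overlap and in IGF2BP3 2, 1 and 2, and in study 2 each also had 1 above. The segments of a gene share its total, and the share over all transcripts was not computed, so nothing is read from these counts. Codons 451 to 500 were lowest after 10 min, with 1.75, 1.74 and 1.68 RPM at 1.5 μM against 5.86, 9.85 and 5.77 RPM. After 60 min and in study 2 the last segment, codons 551 to 600, was lowest.

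In IGF2BP1 8 of the 11 segments were below vehicle after 10 min and 5 in each 60 min comparison, and in IGF2BP3 10 after 10 min, 8 after 60 min and 7 in study 2. The segment ratios of IGF2BP1 ran from 0.533 to 1.08 after 10 min, with 3 of 11 segments below vehicle without overlap, and its codons 1 to 50 were at 1.39 times vehicle. Its codons 51 to 100 held 9.46, 9.84 and 9.47 RPM against 13.5, 25.6 and 14.8 RPM. After 60 min its ratios lay between 0.818 and 1.19, and in study 2 between 0.838 and 1.14. For IGF2BP3 they ran from 0.497 to 1.00, 0.745 to 1.30 and 0.685 to 1.22, and its codons 1 to 50 were at 1.34, 0.630 and 1.18 times vehicle.

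**Figure D3:**
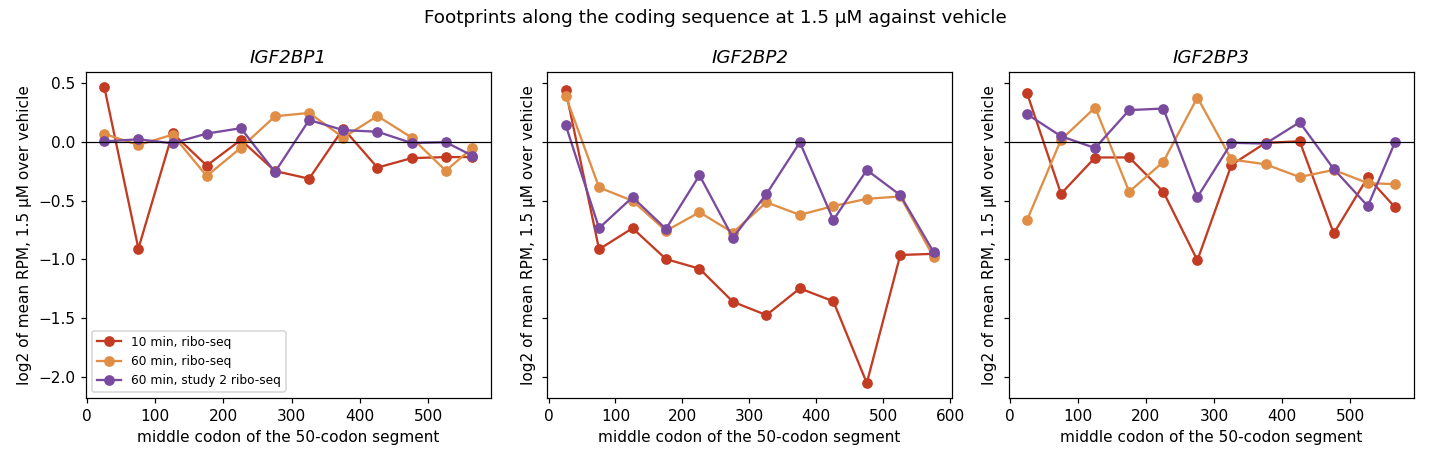
Log2 of the mean RPM at 1.5 μM over vehicle for each 50-codon segment, placed at its middle codon, in the 3 footprint comparisons (lines) of each gene (panels). All 11 segments of IGF2BP2 after codon 50 lie below 0 in each line, whereas its codons 1 to 50 lie above 0.

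Within the first 50 codons, codons 11 to 30 of IGF2BP2, the stretch in capitals in the sequence above, held more reads at 1.5 μM in the 60 min libraries. There the level was 0.990, 0.715 and 1.24 RPM (22, 5 and 14 reads) at 1.5 μM against 0.468, 0.387 and 0.297 RPM (3, 6 and 3 reads) with vehicle. In study 2 it was 2.13 and 1.92 RPM (26 and 26 reads) against 0.437 and 0.788 RPM (6 and 7 reads). After 10 min the groups overlapped, at 2.77, 1.44 and 0.631 RPM against 0.522, 1.12 and 0.589 RPM. The mRNA-seq libraries overlapped as well, at 3.20 and 3.09 against 2.29 and 3.72 RPM. The same codons of IGF2BP3 were also higher in study 2 without overlap, at 2.46 and 2.44 RPM (30 and 33 reads) against 1.46 and 2.25 RPM (20 reads each), and its groups overlapped in study 1. Those of IGF2BP1 overlapped in all 3 comparisons. These counts are small, and the stretch was chosen after they were seen.

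Reads were summed from the start codon onward to compare their distribution along each coding sequence. The largest difference between the cumulative curves of 1.5 μM and vehicle, called Dmax, was 0.104 at codon 129 of IGF2BP2 after 10 min. Up to that codon the 3 libraries held 34.4%, 29.5% and 25.3% of the reads at 1.5 μM and 19.4%, 17.0% and 22.8% with vehicle, without overlap. After 60 min Dmax was 0.0613 at codon 323, where the groups overlapped although each library of 1.5 μM was above the vehicle library of its number, at 53.2% against 48.5%, 46.3% against 43.2% and 49.4% against 45.5% of the reads. In study 2 it was 0.0441 at codon 38, with 6.52% ± 0.0801 of the reads up to there at 1.5 μM and 2.07% ± 0.235 with vehicle (SD, n = 2).

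A Z-score scales each Dmax by those of transcripts with similar read counts, and its value depended on the form used. As the value over the root mean square of its bin, it was 1.32, 1.28 and 1.12 for IGF2BP2, below the minimum of 2 that 3.48% of 11422, 2.67% of 11442 and 2.38% of 11405 transcripts reached. As the number of SDs above the mean of the bin, it was 0.88, 0.84 and 0.51. For IGF2BP1 the first form gave 0.291, 0.772 and 0.484 and the second −0.82, −0.04 and −0.25, so that its Dmax lay below the mean of similar transcripts. For IGF2BP3 they gave 0.615, 0.778 and 1.69, and −0.40, 0.02 and 1.74. In study 2 IGF2BP3 held 46.1% ± 0.403 of its reads up to codon 246 at 1.5 μM against 40.8% ± 0.854 with vehicle (SD, n = 2). No member reached 2 in either form.

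The mean position of the reads of IGF2BP2 lay nearer the start codon at 1.5 μM. It was codon 273, 298 and 312 against 322, 330 and 315 with vehicle after 10 min. After 60 min it was 309, 317 and 311 against 327, 342 and 328, and in study 2 it was 311 and 312 against 322 and 318. The groups were apart in each comparison. IGF2BP3 was also nearer the start codon after 10 min, at 302, 301 and 295 against 310, 307 and 325, and in study 2, at 288 and 291 against 301 and 304, both without overlap, whereas its 60 min groups of study 1 overlapped. The groups of IGF2BP1 overlapped in all 3 comparisons.

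As a percentage of the coding sequence, with reads pooled over libraries, the position of IGF2BP2 differed from vehicle by −4.72, −3.95 and −1.51, while the median transcript differed by −1.21, −0.72 and −0.35. Of all transcripts with at least 50 pooled reads in both groups, 17.0%, 9.72% and 27.7% were at or below IGF2BP2. For IGF2BP3 the differences were −2.08, −0.50 and −2.22, with 39.5%, 53.9% and 19.3% of transcripts at or below, so its difference was the larger of both genes in study 2.

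**Figure D4:**
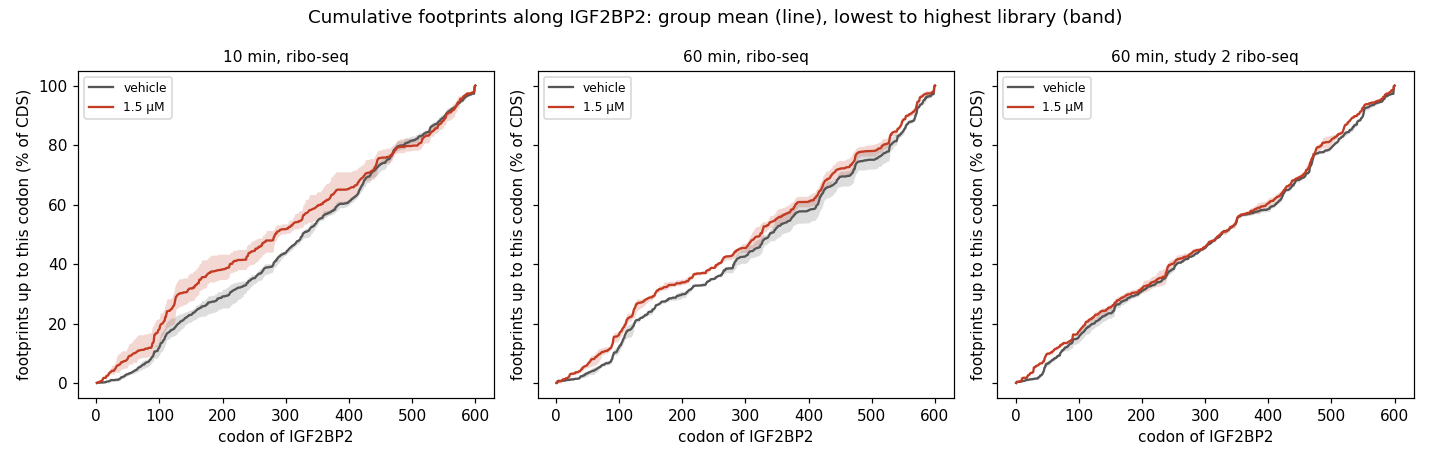
Cumulative percentage of IGF2BP2 footprints up to each codon for 1.5 μM and vehicle, with the group mean as a line and the range of libraries as a band, in the 3 comparisons. After 10 min the mean 1.5 μM curve runs above that of vehicle up to codon 469; with reads pooled over libraries the gap was 0.104 of the reads at codon 129.

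Single codons with the most reads in vehicle cells of study 1 are shown with 5 codons on each side, the codon itself in capitals. The first 5 and last 15 codons of each gene were left out of this ranking. The codons shown mark where ribosomes were most often found away from these ends. Codon 577 of IGF2BP1, left out for this reason, held a mean of 13.6 RPM with vehicle after 60 min, more than any codon shown. The bases around codon 444 of IGF2BP1 span the junction of exons 11 and 12, codon 240 of IGF2BP1 lies in exon 7 at chr17:49039976-49040008, those around codon 528 of IGF2BP2 span that of exons 14 and 15, codon 281 of IGF2BP2 lies in exon 8 at chr3:185675868-185675900, codon 38 of IGF2BP3 lies in exon 1 at chr7:23469982-23470014 and codon 194 of IGF2BP3 in exon 6 at chr7:23351391-23351423. The coordinates are those of the printed bases.
IGF2BP1 codon 444: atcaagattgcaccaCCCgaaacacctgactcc
IGF2BP1 codon 240: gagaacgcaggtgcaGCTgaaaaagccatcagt
IGF2BP2 codon 528: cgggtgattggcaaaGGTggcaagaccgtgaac
IGF2BP2 codon 281: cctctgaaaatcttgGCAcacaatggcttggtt
IGF2BP3 codon 38: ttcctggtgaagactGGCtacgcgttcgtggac
IGF2BP3 codon 194: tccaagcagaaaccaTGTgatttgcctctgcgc

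Codon 444 of IGF2BP1 held a mean of 5.34 RPM in the 6 vehicle libraries, 9.22 times the mean codon of the gene, and ranged from 3.59 to 8.12 RPM. Codon 240 followed with 5.19 RPM, 8.97 times the mean. In IGF2BP2 codon 528 held 0.765 RPM, 5.95 times the mean, and codon 281 held 0.732 RPM, 5.69 times the mean. Codon 38 of IGF2BP3 held 1.097 RPM, 7.12 times the mean, but ranged from 0.160 to 2.65 RPM. Codon 194 of IGF2BP3 held 0.862 RPM, 5.59 times the mean.

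The largest rises at 1.5 μM fell on different codons of IGF2BP2 in each comparison. They were codons 125, 163 and 89 after 10 min, codons 123, 91 and 548 after 60 min and codons 29, 476 and 10 in study 2. Codon 29 held 0.903 and 0.665 RPM (11 and 9 reads) against 0.0728 and 0.113 RPM (1 read each). No codon was among the top 3 in more than 1 comparison. Codon 123 after 60 min did lie near codon 125 after 10 min, and codon 91 near codon 89. The counts behind all these codons were small.

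In IGF2BP1 codon 45 had the largest increase after 10 min, with 4.95, 2.36 and 4.00 RPM against 1.86, 1.28 and 1.53 RPM. The next codon, 46, held 4.51, 2.77 and 0.105 RPM (31, 27 and 1 reads) against 0, 0.160 and 0.942 RPM (0, 2 and 8 reads), so its rise was carried by replicates 1 and 2. Codon 317 of IGF2BP1 was among the top 3 after both 10 and 60 min, and the aligned codon 317 of IGF2BP3 was among the top 3 after 60 min. The bases around both span the junction of exons 8 and 9.
IGF2BP1 codon 317: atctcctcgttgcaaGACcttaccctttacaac
IGF2BP3 codon 317: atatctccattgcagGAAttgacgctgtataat
After 10 min codon 317 of IGF2BP1 held a mean of 2.59 RPM against 1.12 RPM, with a range of 2.47 to 2.74 RPM at 1.5 μM and 0.801 to 1.74 RPM with vehicle. After 60 min it held 4.21 against 2.28 RPM, and the groups overlapped. Codon 317 of IGF2BP3 held 0.948 against 0.532 RPM after 60 min, from 0.810 to 1.14 RPM at 1.5 μM and from 0.322 to 0.780 RPM with vehicle. Codon 42 of IGF2BP3 had the largest increase of that gene after 10 min, at a mean of 1.11 against 0.404 RPM, and its groups overlapped.

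The mRNA of IGF2BP2 did not fall with its footprints. In study 2 mRNA-seq it held 89.4 and 83.5 RPM at 1.5 μM and 72.3 and 71.2 RPM with vehicle, 120.4% of vehicle, with 1.5 μM the higher in each library. The log2 fold change was 0.25 (SE 0.0987), with an unadjusted p of 0.0275 and an adjusted p of 0.999 with edgeR's quasi-likelihood test and Benjamini-Hochberg adjustment. The IGF2BP1 libraries held 208 and 197 RPM against 199 and 181 RPM, and those of IGF2BP3 35.4 and 37.6 RPM against 33.5 and 34.4 RPM. By replicate number both of these genes were also higher at 1.5 μM. Their log2 fold changes were 0.08 (SE 0.0909) and 0.09 (SE 0.129), both with an adjusted p of 0.999 in the same edgeR test. This test called 0% of 11812 transcripts, with 228 at an unadjusted p under 0.05, and DESeq2 called 1.

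Footprints divided by mRNA of the same replicate give a ratio, a measure of translational efficiency (TE). With vehicle it was 1.72 ± 0.133 for IGF2BP1, 1.01 ± 0.0280 for IGF2BP2 and 3.09 ± 0.0181 for IGF2BP3 (SD, n = 2). The median of 10956 transcripts was 0.924, and 79.3%, 54.6% and 95.6% of transcripts were at or below the 3 values. The family thus differed in order between mRNA and ratio: IGF2BP3, the lowest in mRNA at 19.5 RPKM, had the highest ratio, and IGF2BP1, with 110 RPKM of mRNA, lay between.

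At 1.5 μM the ratio was 0.607 ± 0.0553 for IGF2BP2, 1.64 ± 0.117 for IGF2BP1 and 2.87 ± 0.210 for IGF2BP3 (SD, n = 2). The ratios of IGF2BP2 were below both of vehicle. Those of IGF2BP3 were as well, at 2.72 and 3.02 against 3.10 and 3.08, whereas those of IGF2BP1 overlapped. Fitted over all 8 libraries of study 2, the log2 change in TE was −0.74 (SE 0.126) for IGF2BP2, −0.07 (SE 0.112) for IGF2BP1 and −0.10 (SE 0.146) for IGF2BP3. The fit called 0 of 3 members, against 0.0339% of 11799 transcripts. Both kinds of library came from 1 culture and are so paired, and with the culture as a block IGF2BP2 passed (log2 change −0.74), against 0.11% of transcripts. TE draws on the footprints known when the genes were chosen, so nothing is read from this count either.

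**Figure D5:**
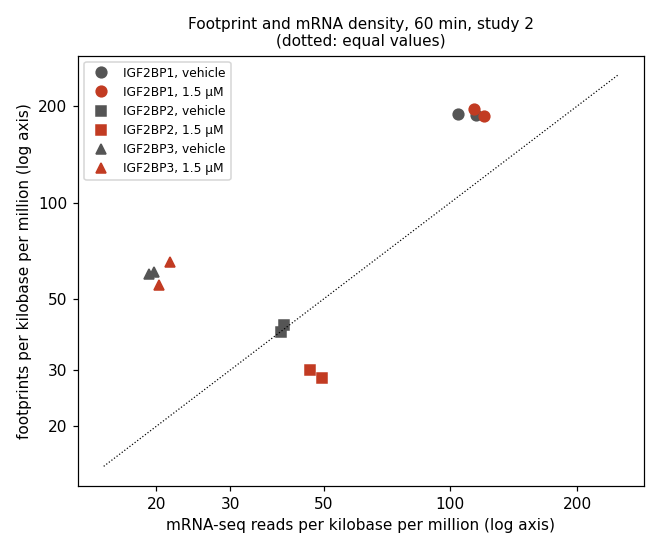
Footprints against mRNA, both in RPKM on log axes, for the 3 genes in each replicate of study 2; the dotted line marks equal values. IGF2BP2 falls from near the line (ratio 1.01 with vehicle) to below it at 1.5 μM (0.607), and the other genes stay above it.

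Related genes were followed in 4 lists. None of their genes passed the FDR in the 7 comparisons, in which edgeR called from 0% to 0.851% of all transcripts, and nothing is read from that count of 0. Of 15 RNA-binding proteins found in IGF2BP particles, 14 were tested, and their median log2 fold change at 1.5 μM after 10 min was −0.18, from −0.45 for MATR3 to 0.69 for PABPC1, the poly(A)-binding protein. The median of all transcripts tested there was 0.01. For 14 m6A writers, erasers and readers the median was −0.00, from −0.54 for METTL14, a subunit of the methyltransferase, to 0.31 for CBLL1. Of 16 client mRNAs 12 were tested, with a median of 0.03, from −0.59 for HMGA2 to 0.40 for IGF2, the growth factor mRNA after which the family is named. For 8 fetal liver and oncofetal genes tested of 9 the median was 0.19, from −0.34 for LIN28B to 0.40 for IGF2. After 60 min the 4 medians were −0.05, −0.00, 0.01 and 0.03. In study 2 the 4 medians were −0.00, −0.02, 0.05 and −0.05 in ribo-seq, beside 0.00 over all transcripts tested. They were 0.11, 0.09, 0.07 and 0.02 in mRNA-seq and −0.11, −0.11, 0.03 and −0.04 in TE, beside −0.00 and −0.01 over all transcripts tested.

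Across the 18 footprint libraries of study 1 the log2 levels of 9690 transcripts were compared with those of each member by Pearson's r, as a description over libraries that share treatments and depth. IGF2BP2 was most like DDRGK1 (0.888), RFC1 (0.881) and HSD17B11 (0.878). IGF2BP1 was most like PRKACA (0.879), DAP (0.848) and DAZAP1 (0.837), and IGF2BP3 was most like CHD2 (0.898), ARHGAP18 (0.887) and SMARCC2 (0.884). Between members r was 0.37 for IGF2BP1 with IGF2BP2, 0.37 for IGF2BP1 with IGF2BP3 and 0.69 for IGF2BP2 with IGF2BP3.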

How the data were processed

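The authors deposited raw counts of reads at each codon, without normalization. After taking out adapters and rRNA, they used Bowtie 1.1.2 to map to 1 isoform per expressed gene of GRCh38, chosen with kallisto 0.42.5, kept reads with at most 5 best sites and assigned them to the codon in the P-site. DESeq is named in the submitters' processing notes.

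Here counts were summed over each coding sequence of 12325 transcripts, of which 11270 were named by GENCODE 44 and 1055 stayed unnamed. Fits across all transcripts used edgeR 4.0.16 (filterByExpr, TMM, quasi-likelihood test, FDR 0.1) in R 4.3.3 with only the groups compared, and TE as an interaction. Self-tests of the scripts on simulated counts were run. DESeq2 1.42.0, limma 3.58.1, Python 3.11.15, numpy 2.4.6, pandas 2.3.3, scipy 1.17.1 and matplotlib 3.10.9 were also used. Dmax needed 10 reads per group and bins of 300 transcripts.

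Members, gene lists and the rule for named genes (the 3 members, list genes past the FDR, and the 3 transcripts most like each member) were chosen with earlier results of these data known. The sample titles give replicate numbers, and the study's text calls the replicates biological. The p-values measure the spread between these libraries. Same-numbered libraries deviated together (correlations over 10168 transcripts) at 60 min in study 1, with 0.503, 0.369 and 0.497 for 1.5 μM and 0.422, 0.428 and 0.522 for 0.3 μM. At 10 min 1.5 μM gave 0.172, 0.210 and 0.0738 and 0.3 μM gave 0.180, 0.139 and 0.500, so the 10 min numbers were not taken as pairs. In study 2 the ribo-seq and mRNA-seq libraries came from the same culture per the study's methods.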

Additional observations from a re-analysis of the deposited data

How the results depend on the processing

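Of 231 alternative values of the members' log2 fold changes, 227 moved by less than the replicate spread or stayed on their side of the threshold and 4 moved further. A value of IGF2BP2 that passed never changed sign, but 11 alternative values, of 7 results that lay between −0.10 and 0.02 and did not pass, had the other sign. IGF2BP2 passed the FDR at 1.5 μM after 10 min in 11 of 11 alternatives, after 60 min in 2 of 12 (the replicate block and both studies in a single fit), in study 2 ribo-seq in 5 of 9 and in TE in 5 of 14, with log2 fold changes of −1.12 to −0.93, −0.68 to −0.44, −0.53 to −0.44 and −0.81 to −0.68. These passes rest on the footprints known when the gene was chosen and are given as a description. With TMM-scaled totals the footprint to mRNA ratio with vehicle was 1.95 for IGF2BP1, 1.15 for IGF2BP2 and 3.50 for IGF2BP3, and over codons after 50 and before the last 15 it was 1.06 for IGF2BP2. Leaving out each replicate in turn gave −0.025 to 0.054 for IGF2BP1 and −0.14 to 0.11 for IGF2BP3 in study 2 ribo-seq, and −0.237 to 0.026 for IGF2BP3 in TE. Calls over all transcripts after 10 min were 94 with edgeR, 519 with DESeq2, 195 over codons after 50 and 9 to 1656 without 1 replicate. After 60 min they were 8, 17, 19 and 0 to 8, in study 2 ribo-seq 13 and, over codons after 50, 29, with 10 to 129 without 1 replicate, and in TE 4, 11, 15 and 1 to 128. The replicate block gave 1196 calls after 10 min, 51 after 60 min, 129 in study 2 ribo-seq and 13 in TE. In these last 3 it turned IGF2BP2 from not passing to passing, and it changed no other call of a member. Of the 9 Dmax Z-scores, 7 moved with the form of the score. Among alternative values of Dmax itself 9 moved by more than the replicate spread and 48 did not, and of the mean read position 6 moved and 60 did not. The causes were not tested. The few reads per codon of IGF2BP2 limit what single codons can show.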
